A study of Homo sapiens with 6 samples.

Results

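The proteasome was read here as 44 genes for its subunits and assembly factors. They were the 7 alpha and 7 beta subunits of the 20S core, the 3 immunoproteasome beta subunits, 6 ATPases and 12 other subunits of the 19S cap, 4 activators and 5 assembly factors. A gene was represented by every non-control probe whose RefSeq accession is assigned to its symbol, which gave 52 probes. All 44 genes were tested, among 16821 genes that had a tested probe and a symbol.

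RNA came from CAL-27, an established human tongue squamous carcinoma line. Cells carried a short hairpin RNA against XBP-1s (shXBP-1s, n = 3) or a negative control hairpin (shCtrl, n = 3), with no other treatment named. XBP-1s is the transcription factor made from spliced XBP1 mRNA when IRE1α senses unfolded protein in the endoplasmic reticulum. The array experiment addressed how loss of XBP-1s bears on MHC class I expression, for which candidates were the supply of MHC class I subunits, of peptides and of other antigen-processing components. The proteasome is the source of most of those peptides. The methods describe stable transduction and the labels a transfection. Neither says whether the 3 samples of a group were separate cultures, so p-values measure only the spread between these samples, which may be technical. The arrays read bulk RNA, in which fewer cells of a type and less RNA per cell cannot be told apart.

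The proteasome is a barrel of 4 stacked rings, 2 outer rings of alpha subunits that gate the entrance and 2 inner rings of beta subunits. PSMB6, PSMB7 and PSMB5 carry its active sites. In cells that have met interferon-gamma, newly built particles take PSMB9, PSMB10 and PSMB8 in their place and form the immunoproteasome, which favours peptides that fit MHC class I. The 19S cap binds ubiquitin-tagged proteins, unfolds them with a ring of ATPases and feeds them into the barrel. Smaller caps, PA28 (PSME1 and PSME2 in the cytosol, PSME3 in the nucleus) and PA200 (PSME4), open the gate without ATP. Assembly needs dedicated chaperones, among them POMP and the PSMG proteins.

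Each array gave between 82.1% and 84.8% of its spots as well above background by the scanner software, and no spot was saturated. A level below is the log2 of the background-subtracted signal minus the 75th percentile of its array. A difference is shXBP-1s minus shCtrl on that log2 scale with its standard error, and adjusted p-values are those of limma with Benjamini-Hochberg adjustment over 27624 probes. Where a gene had several probes, its brightest one stood for it. XBP1 itself was read at 1.88, 1.85 and 1.87 in shCtrl and at -0.50, -0.54 and -0.52 in shXBP-1s, so its level fell by 2.39 ± 0.04 (limma adjusted p = 2.81e-07). All 9 squamous and epithelial marker genes and all markers of the other cell types listed next were well above background on the 6 arrays. Mean signals of the 9 ran from 375.3 to 29416.8. Mean signals of 3 endothelial markers were at most 144.6 and of 4 fibroblast markers at most 411.5. Of 4 leukocyte markers 3 were at or below 306.1, and CD14 was at 3017.3. Some of these markers differed between groups, with mean levels of CD14 at 2.27 in shCtrl and 1.43 in shXBP-1s and of the basal keratin gene KRT5 at 0.76 and 2.19. The simple-epithelial keratin gene KRT8 went the other way, from 3.34 to 2.42, as did KRT18, from 5.52 to 4.82. Of the fibroblast markers DCN was at -5.74 and -4.31 and PDGFRB at -0.43 and -1.71. The part of these markers in the results was not tested. The 75th percentile used for scaling was 687.4 to 761.31 signal units on the shCtrl arrays and 792 to 983.39 on the shXBP-1s arrays. The scan identifiers in the array headers place shCtrl replicates 2 and 3 on one slide and the other 4 arrays on another. Values within a slide are therefore shXBP-1s minus shCtrl replicate 1 alone.

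Start sites of members whose promoter windows hold an interferon-stimulated response element are shown first. A response of these cells to interferon was not tested. RefSeq promoter windows of build GRCh38.p14, from 250 bases before to 50 bases after a start, were given for 38 of the 44 genes, as 47 windows. PSMA7, PSMB1, PSMB6, PSMB7, PSMD4 and PSMG3 had none. The interferon-stimulated response element was searched as GAAANNGAA on both strands. It was in 8 of the 47 windows, or 17%, and in 8.11% of all 35116 promoter windows. Counting only the 250 bases before a start, it was in 5 member windows, or 10.6%, and in 6.88% of all. The matches of PSMB8, PSME1 and PSMC2 were then not counted. Capitals mark the match, read 5′ to 3′ on the strand of the gene, with up to 16 bases on each side.
PSMB8, chr6:32844026-32844066, minus strand: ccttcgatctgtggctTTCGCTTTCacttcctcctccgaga
PSMB10, chr16:67936847-67936887, minus strand: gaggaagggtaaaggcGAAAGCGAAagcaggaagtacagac
PSME1, chr14:24136184-24136224, plus strand: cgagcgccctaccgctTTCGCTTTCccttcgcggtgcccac
PSME2, chr14:24146614-24146654, minus strand: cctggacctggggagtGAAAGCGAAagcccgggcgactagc
POMP, chr13:28659099-28659139, plus strand: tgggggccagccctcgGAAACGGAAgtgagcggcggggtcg
PSMA4, chr15:78540155-78540189, plus strand: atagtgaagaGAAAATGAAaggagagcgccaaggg
PSMB4, chr1:151399489-151399529, plus strand: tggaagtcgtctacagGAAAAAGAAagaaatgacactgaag
PSMC2, chr7:103347620-103347660, plus strand: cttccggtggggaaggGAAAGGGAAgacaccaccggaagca
In PSMB10 the match lies at positions -21 to -13 from the start and in PSME2 at -28 to -20. PSMB8, in one of its 2 windows, and PSME1 hold it on the opposite strand across or just after the start. The longest run that these 4 genes share, on either strand, is GAAAGCGAAAGC, 12 bases. That run was looked for after their values were known. It was in 17 of the 35116 windows, or 0.0484%. The PSMB9 window had no match, and its start lies 488 bases from a start of TAP1, the peptide transporter gene on the opposite strand. The TAP1 window holds the element as an overlapping pair, also in capitals here.
TAP1, chr6:32853807-32853853, minus strand: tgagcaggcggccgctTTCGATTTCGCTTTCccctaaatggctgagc
All 8 members with a match had a difference below 0 as scaled here, and 5 of them, PSMB8, PSMB10, PSME1, PSME2 and PSMA4, passed the test. The smallest differences changed sign with the scaling, as PSMB4 turned positive with normexp background correction (0.05), quantile normalization (0.08), both (0.03), cyclic loess (0.05) and the deposited log2 values (0.04), and PSMC2 with normexp (0.06), cyclic loess (0.02) and the deposited values (0.01). With the slide as a block PSME1 and PSMA4 lost their calls, and with normexp alone PSME1, PSME2 and PSMA4 did. Across the other tested genes with a promoter window the same letters went with no such tilt, as 27.6% of 1161 genes with a match and 27.9% of 11952 genes without one were lower at adjusted p below 0.05. Of the 9 other tested genes that hold the run of 12 bases, 3 were lower and 2 were higher. The lower ones were TAP2, RNF31 and PSMG4, a proteasome gene outside the 44, and the higher ones were MYD88 and UBFD1.

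In all, 10 of the 44 genes were higher in shXBP-1s and 12 were lower at adjusted p below 0.05, and 22 did not pass. As shares, 22.7% of members were higher beside 18.9% of all tested genes, and 27.3% were lower beside 27.5%. The whole set was thus close to the background, and its median difference was -0.01 beside -0.04 for all tested genes. No member passed adjusted p below 0.05 with a change of at least 2-fold, a call made for 5.18% of all tested genes. The arrays of the groups did not overlap for 26 members, 14 higher and 12 lower, which is 59.1% beside 56.5% of all tested genes. Scaling moved the split. It was 10 higher and 4 lower with normexp background correction, 14 and 10 with quantile normalization, 12 and 10 with both, 18 and 10 with cyclic loess and 17 and 10 on the deposited log2 values. With the slide as a block it was 7 higher and 6 lower. The set was not uniform within itself, as the subcomplexes below differ in direction.

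**Figure D1:**
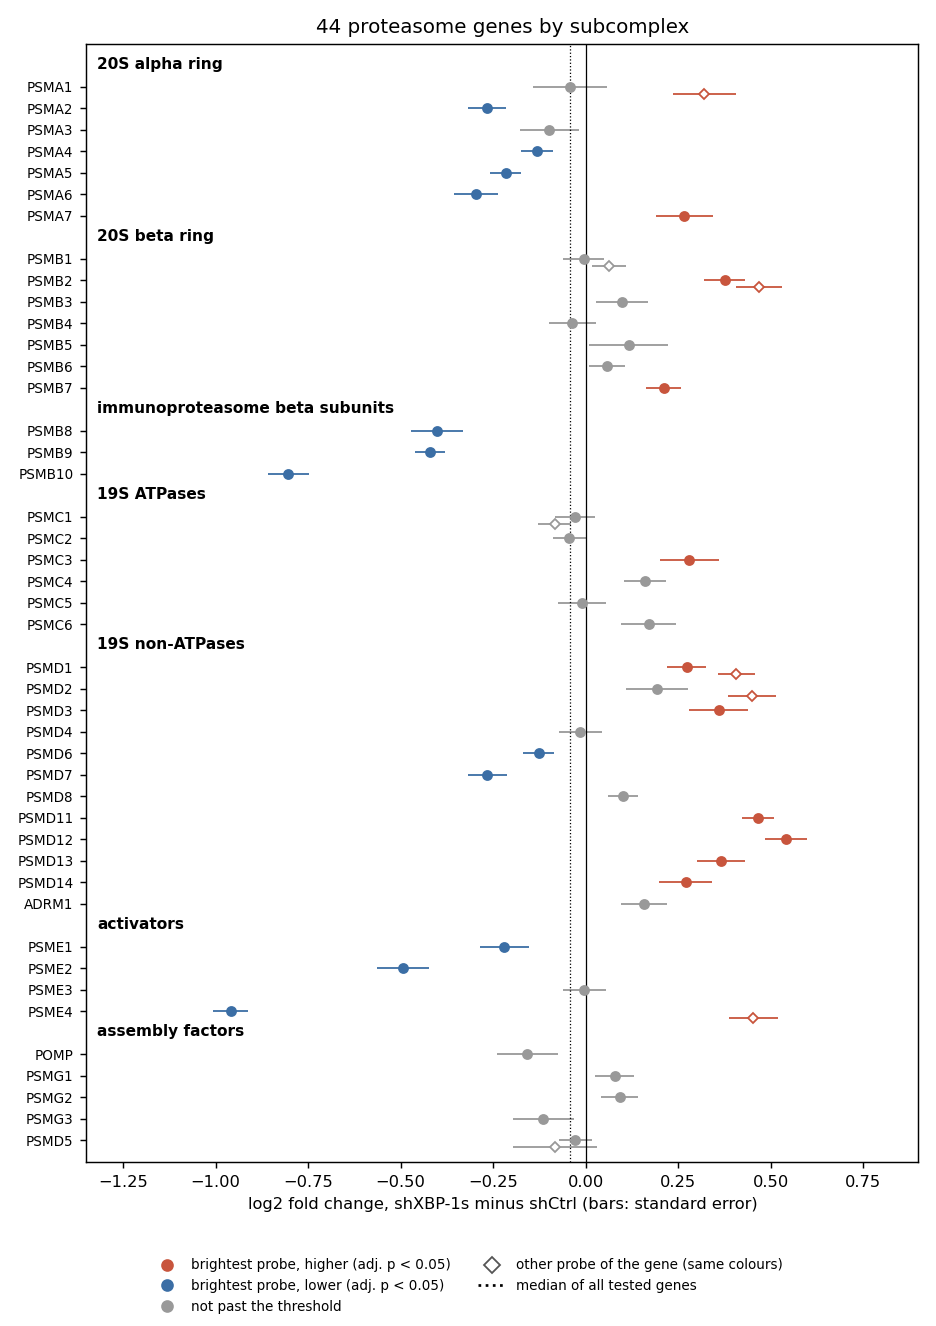
Difference of each of the 44 genes, shXBP-1s minus shCtrl on the log2 scale, with standard errors, in 7 subcomplexes. Filled circles are the brightest probe of a gene and open diamonds its other probes, and the dotted line is the median of all tested genes, -0.04. The 3 immunoproteasome subunits, PSME1, PSME2 and the brightest PSME4 probe lie to the left. Of the 12 19S non-ATPase genes 6 are higher, or 50%, beside 18.9% of all tested genes.

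All 3 immunoproteasome beta subunits were lower, beside 27.5% of all tested genes, with a median difference of -0.42. PSMB8, the chymotrypsin-like subunit also called LMP7, was read at 1.43, 1.41 and 1.48 in shCtrl and at 1.18, 1.04 and 0.90 in shXBP-1s. Its level fell by 0.40 ± 0.07 (limma adjusted p = 0.00245), and by 0.39 within the slide. PSMB9, the subunit LMP2 encoded beside TAP1, was at 2.24, 2.29 and 2.26 in shCtrl and at 1.84, 1.83 and 1.85 in shXBP-1s. All shXBP-1s arrays lay below all shCtrl arrays for both genes, and those of PSMB9 were spread over a narrow range. PSMB9 fell by 0.42 ± 0.04 (limma adjusted p = 1.04e-04), and by 0.40 within the slide. PSMB10, the trypsin-like subunit MECL-1, was at 4.55, 4.67 and 4.64 in shCtrl and at 3.76, 3.80 and 3.89 in shXBP-1s. It fell by 0.80 ± 0.06 (limma adjusted p = 2.03e-05), so that its signal on the linear scale dropped by 42.7%. Within the slide the PSMB10 difference was -0.73. No alternative setting took the call from any of the 3 genes, and their median difference stayed between -0.47 and -0.33.

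Of their constitutive counterparts PSMB7 was higher, and PSMB5 and PSMB6 did not pass. PSMB5, which PSMB8 replaces, was at 3.14, 3.18 and 2.95 in shCtrl and at 3.33, 3.32 and 2.97 in shXBP-1s. The groups overlap through shXBP-1s replicate 3, and the difference of 0.12 ± 0.11 did not pass (limma adjusted p = 0.423). Without shXBP-1s replicate 3 it was 0.24 and passed (limma adjusted p = 0.0478). PSMB6, which PSMB9 replaces, was at 4.13, 4.06 and 4.04 in shCtrl and at 4.09, 4.16 and 4.17 in shXBP-1s, overlapping groups with a difference of 0.06 ± 0.05. PSMB7, which PSMB10 replaces, was at 4.52, 4.57 and 4.58 in shCtrl and at 4.74, 4.75 and 4.81 in shXBP-1s. Its groups did not overlap, and it rose by 0.21 ± 0.05 (limma adjusted p = 0.00856).

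The ratio within an array compares the members of a pair without regard to the scaling of that array, and shows unequal change only. Relative to its shCtrl mean, the log2 ratio of PSMB8 to PSMB5 ran from -0.12 to 0.18 in shCtrl and from -0.64 to -0.42 in shXBP-1s, a mean difference of -0.52. For PSMB9 against PSMB6 the ratio ran from -0.08 to 0.04 in shCtrl and from -0.51 to -0.43 in shXBP-1s, a mean difference of -0.48. For PSMB10 against PSMB7 it ran from -0.03 to 0.04 and from -1.04 to -0.98, a mean difference of -1.01. The groups were apart in all 3 pairs. Each gave p = 0.1 in the 2-sided exact permutation test, the smallest that 3 against 3 arrays allow, so this design cannot reach 0.05, and adjusted over the 3 pairs it was also 0.1. Within the slide the differences were -0.46, -0.40 and -0.98.

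**Figure D2:**
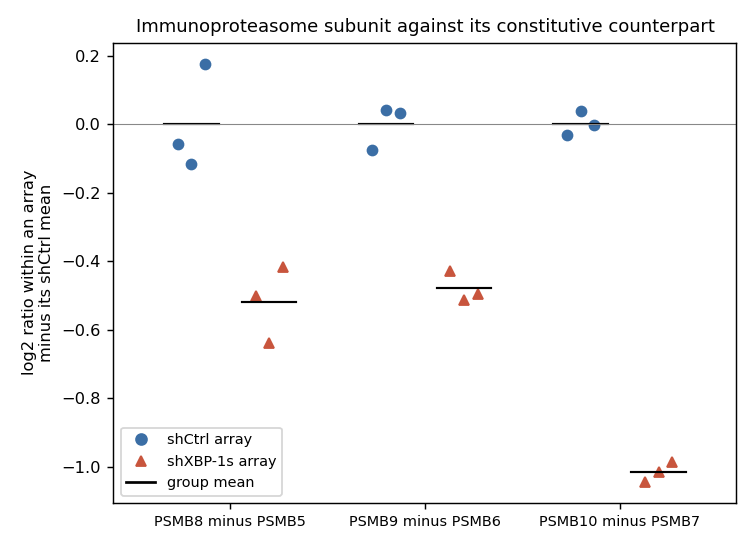
Log2 ratio of each immunoproteasome subunit to the constitutive subunit it replaces, within an array and relative to the shCtrl mean of that ratio. Circles are shCtrl arrays, triangles shXBP-1s arrays and bars group means, and all triangles lie below all circles, by about 1 log2 unit for PSMB10 minus PSMB7.

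Of the 4 activators PSME1 and PSME2 were lower, PSME3 did not pass, and PSME4 was lower by its brightest probe and higher by the other. By brightest probes 75% were lower, beside 27.5% of all tested genes. PSME1, the alpha subunit of PA28, was at -1.19, -1.08 and -1.13 in shCtrl and at -1.25, -1.37 and -1.44 in shXBP-1s. The groups did not overlap but came close, and the fall of 0.22 ± 0.07 (limma adjusted p = 0.0288) was lost with the slide as a block (-0.16, limma adjusted p = 0.223) and without shCtrl replicate 2 or 3 or shXBP-1s replicate 2 or 3, when adjusted p lay between 0.0789 and 0.101. PSME2, its beta subunit, was at 5.92, 6.07 and 6.03 in shCtrl and at 5.39, 5.54 and 5.60 in shXBP-1s. It fell by 0.49 ± 0.07 (limma adjusted p = 8.69e-04), and by 0.41 within the slide. With normexp alone the PSME2 difference was -0.33 and did not pass (limma adjusted p = 0.451, from the pooled spread of that setting). The nuclear activator PSME3 was at 0.04, -0.04 and -0.02 in shCtrl and at 0.05, 0.03 and -0.12 in shXBP-1s, overlapping groups whose difference of 0.00 ± 0.06 changed sign with the scaling.

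PSME4, or PA200, an activator associated with acetylated histones, was the only member whose probes opposed each other past the threshold. Its probe A_33_P3243997 was at 0.33, 0.39 and 0.33 in shCtrl and at -0.62, -0.65 and -0.56 in shXBP-1s, a difference of -0.96 ± 0.05 (limma adjusted p = 4.38e-06). The probe A_23_P79628 was at -0.29, -0.52 and -0.43 in shCtrl and at 0.03, 0.10 and -0.01 in shXBP-1s, a difference of 0.45 ± 0.07 (limma adjusted p = 9.51e-04). Both carry the same RefSeq accession, neither set of arrays overlapped, and within the slide the differences were -0.94 and 0.33. By the mean of its probes the difference was -0.25. The direction of PSME4 is thus not settled by these arrays, and its place among the 12 lower genes rests on which probe was the brighter.

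**Figure D3:**
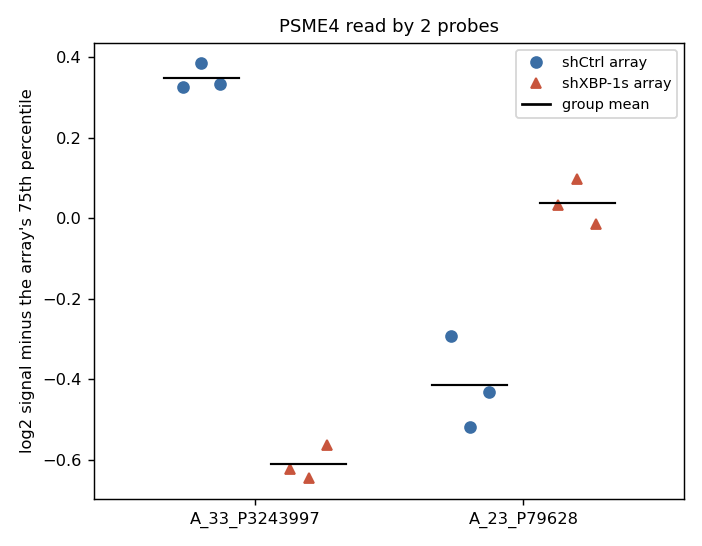
Level of PSME4 in each array by its 2 probes, as log2 signal minus the 75th percentile of the array, with shCtrl arrays as circles, shXBP-1s arrays as triangles and group means as bars. The left probe is lower in shXBP-1s by 0.96 and the right probe higher by 0.45, and neither overlaps between groups.

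The alpha ring of the 20S core, which gates the barrel and docks its caps, had 4 of 7 genes lower and 1 higher, with a median difference of -0.13. As shares these were 57.1% and 14.3%, beside 27.5% and 18.9% of all tested genes. PSMA6 was at 4.38, 4.39 and 4.36 in shCtrl and at 3.99, 4.06 and 4.19 in shXBP-1s, and fell by 0.30 ± 0.06 (limma adjusted p = 0.00499). PSMA2 was at 4.40, 4.47 and 4.48 in shCtrl and at 4.14, 4.16 and 4.25 in shXBP-1s, and fell by 0.27 ± 0.05 (limma adjusted p = 0.0042). Neither gene overlapped between groups. PSMA5 and PSMA4 were also lower, by differences of -0.22 and -0.13. PSMA7 was at 2.25, 2.40 and 2.10 in shCtrl and at 2.46, 2.51 and 2.57 in shXBP-1s, and rose by 0.27 ± 0.08 (limma adjusted p = 0.0255). That call was lost without shCtrl replicate 3 or shXBP-1s replicate 2 or 3, with adjusted p from 0.0704 to 0.0783. PSMA1 and PSMA3 did not pass, although a second PSMA1 probe was higher by 0.32 (limma adjusted p = 0.0182). That probe is assigned to another transcript and was dim, with signals between 52.8 and 103.4. Its difference was -0.39 with normexp, and its highest limma adjusted p with an array left out was 0.0693. With the slide as a block 1 of the 7 genes was lower and none higher. PSMA6 then had an adjusted p of 0.0362 in limma, PSMA2 of 0.0619 and PSMA7 of 0.124. With normexp alone none of the 7 was lower.

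In the beta ring 2 of 7 genes were higher, or 28.6%, and none lower, beside 18.9% and 27.5% of all tested genes. The median difference was 0.10. PSMB2, a structural subunit without an active site, was at 3.23, 3.10 and 3.08 in shCtrl and at 3.54, 3.54 and 3.47 in shXBP-1s, with no overlap. It rose by 0.38 ± 0.06 (limma adjusted p = 9.43e-04), and its second probe by 0.47 ± 0.06. PSMB7 was the other, and PSMB1, PSMB3 and PSMB4 had differences between -0.04 and 0.10 that did not pass. With cyclic loess 4 of the 7 were higher.

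Among the 19S ATPases, which form the ring that unfolds substrates, 1 of 6 was higher. PSMC3 was at 1.31, 1.14 and 1.26 in shCtrl and at 1.67, 1.49 and 1.39 in shXBP-1s. Its groups were apart by a small margin, and the rise of 0.28 ± 0.08 (limma adjusted p = 0.0231) was lost with the slide as a block (0.21, limma adjusted p = 0.199) and when any one of shCtrl replicates 2 and 3 or shXBP-1s replicates 1 and 2 was left out, with adjusted p from 0.0507 to 0.0753. PSMC4 and PSMC6 were also above shCtrl on every shXBP-1s array, with differences of 0.16 and 0.17 that did not pass. PSMC1, PSMC2 and PSMC5 lay between -0.04 and -0.01.

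The other subunits of the 19S cap, which are also the largest list, held most of the members that rose. Of 12 genes 6 were higher and 2 lower, with a median difference of 0.23. PSMD12, a scaffold subunit of the lid, was at 2.08, 2.01 and 1.94 in shCtrl and at 2.47, 2.55 and 2.63 in shXBP-1s. It rose by 0.54 ± 0.06 (limma adjusted p = 1.78e-04), the largest rise among the 44 brightest probes, and by 0.47 within the slide. PSMD11, another lid scaffold, was at 2.54, 2.47 and 2.46 in shCtrl and at 2.95, 2.95 and 2.96 in shXBP-1s, and rose by 0.47 ± 0.04 (limma adjusted p = 8.35e-05). Neither gene overlapped between groups, and neither lost its call under any setting tried. PSMD13 and PSMD3, also of the lid, rose by 0.37 and 0.36. PSMD14, the lid metalloprotease that removes ubiquitin chains from substrates, rose by 0.27, and PSMD1, the large base subunit that holds ubiquitin receptors, by 0.27 on its brightest probe and by 0.41 on its other probe. With the slide as a block 5 of the 12 genes were higher and none lower.

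PSMD2, the other large base subunit, was at 4.40, 4.52 and 4.42 in shCtrl and at 4.46, 4.68 and 4.78 in shXBP-1s on its brightest probe. These groups overlapped through 1 array, and the difference of 0.19 ± 0.08 did not pass (limma adjusted p = 0.101). On its other probe PSMD2 was at 0.67, 0.75 and 0.74 in shCtrl and at 1.28, 1.18 and 1.05 in shXBP-1s, higher by 0.45 ± 0.06 (limma adjusted p = 8.45e-04). The ubiquitin receptors PSMD4 and ADRM1 had differences of -0.01 and 0.16, and PSMD8 of 0.10, none past the threshold. Against the direction of the others, PSMD7, the lid partner of PSMD14, was at 2.54, 2.66 and 2.59 in shCtrl and at 2.27, 2.33 and 2.39 in shXBP-1s, and fell by 0.27 ± 0.05 (limma adjusted p = 0.00432). PSMD6, a lid scaffold, was at 1.50, 1.47 and 1.54 in shCtrl and at 1.37, 1.37 and 1.39 in shXBP-1s, a fall of 0.13 ± 0.04 (limma adjusted p = 0.0415). Each was read by 10 spots an array. The PSMD6 call was lost when any one of the 6 arrays was left out, with adjusted p from 0.0562 to 0.158, and both calls were lost with the slide as a block, PSMD7 at 0.0602.

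**Figure D4:**
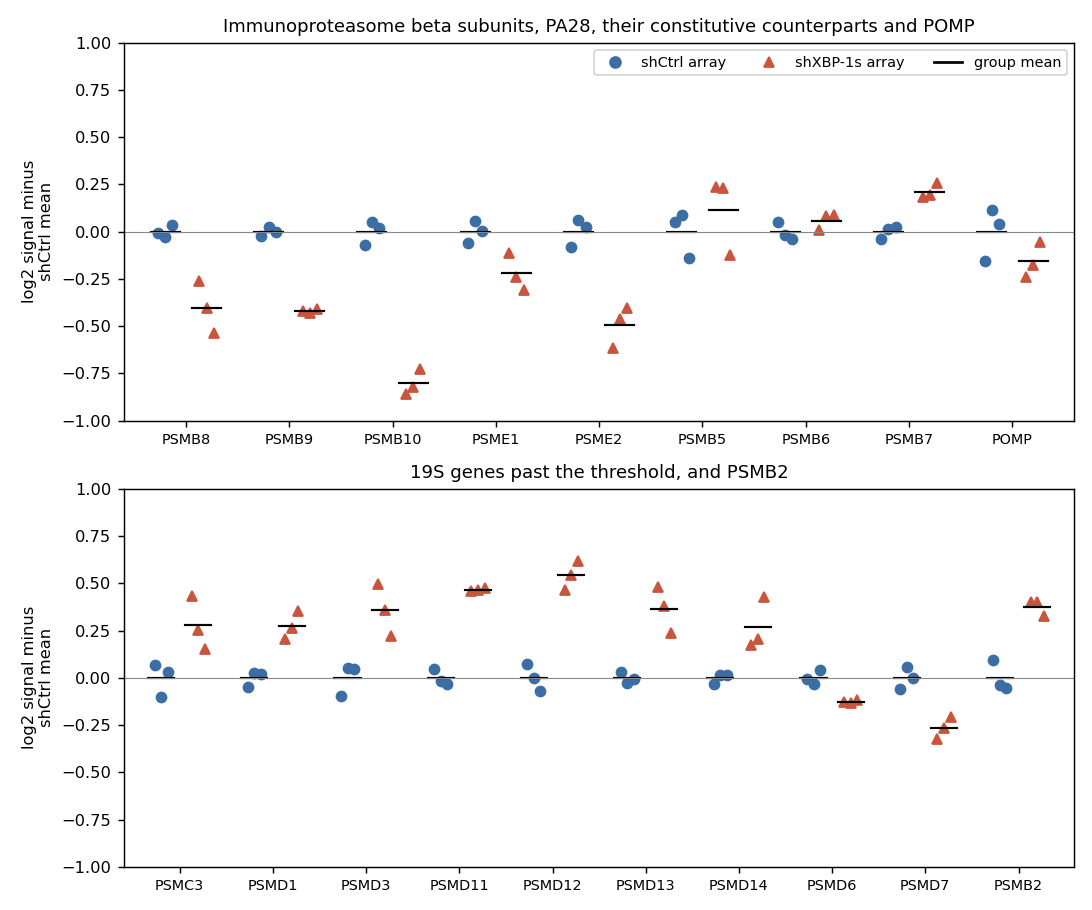
Log2 signal in each array relative to the shCtrl mean of the gene, for the immunoproteasome and PA28 genes with the constitutive counterparts and POMP above, and for 9 19S genes past the threshold and PSMB2 below. Circles are shCtrl arrays, triangles shXBP-1s arrays and bars group means. PSMB8, PSMB9, PSMB10, PSME1 and PSME2 lie below their controls without overlap, and PSMD11 and PSMD12 lie above theirs.

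None of the 5 assembly factors on this list passed, and their differences ran from -0.16 to 0.09. Of all tested genes 18.9% were higher and 27.5% lower. PSMG4, PSMD9, PSMD10 and PAAF1 were read with the further proteasome genes below. By their brightest probes PSMG4 (-0.20, limma adjusted p = 0.0346) and PSMD10 (-0.22, limma adjusted p = 0.0107) were lower. PSMD9 was higher (0.16, limma adjusted p = 0.0393), and PAAF1 passed only by its other probe (-0.26, limma adjusted p = 0.015). With single arrays left out, the highest limma adjusted p was 0.1087 for PSMG4, 0.0516 for PSMD10 and 0.1185 for PSMD9. POMP, the chaperone that starts beta ring assembly and is needed for the immunoproteasome, was at -1.31, -1.04 and -1.12 in shCtrl and at -1.39, -1.33 and -1.21 in shXBP-1s. Its groups overlapped through shCtrl replicate 1, with a difference of -0.16 ± 0.08 (limma adjusted p = 0.167). Without that array the difference was -0.23 and passed (limma adjusted p = 0.0276), and within the slide, where it is the only control, the difference was 0.00. PSMG1, PSMG2 and PSMG3, which pair up alpha subunits, were at 0.08, 0.09 and -0.11. PSMD5, a chaperone of the 19S base, was at -0.03 on its brightest probe and at -0.08 on the other.

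Of the 8 members with at least 2 tested probes, PSMB2 and PSMD1 were higher by both, and PSMB1, PSMC1 and PSMD5 passed by neither. PSMA1 and PSMD2 passed only by the probe that was not the brightest, and PSME4 passed by both in opposite directions. The remaining 36 members rest on a single probe each.

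**Figure D5:**
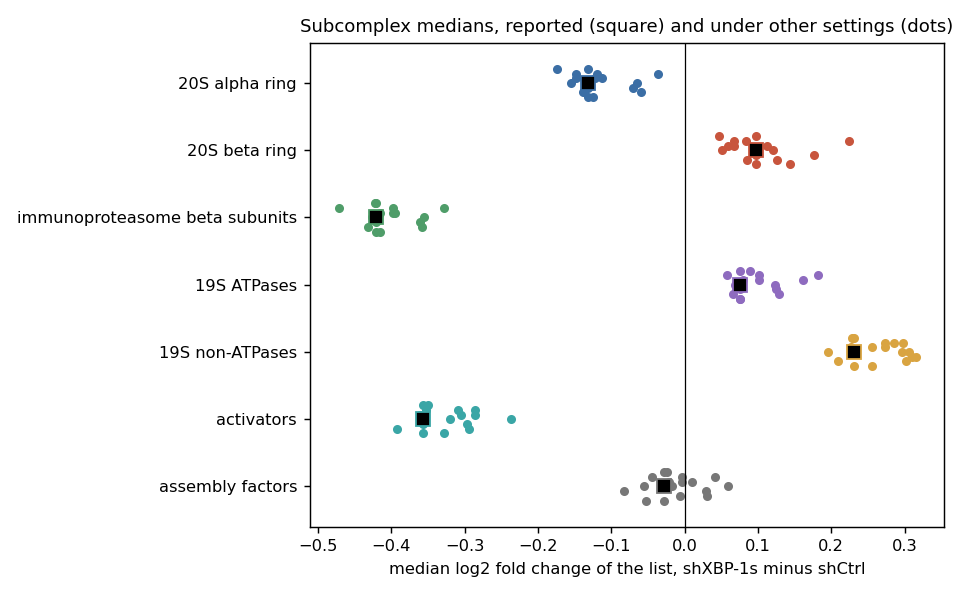
Median difference of each subcomplex on the log2 scale, as reported (black squares) and under 17 other settings of scaling, filtering, probe choice, slide and left-out arrays (dots). The immunoproteasome subunits, the activators and the alpha ring lie below 0 in all, the beta ring and both 19S lists above 0 in all, and the assembly factors on both sides.

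Factors known to act on proteasome genes, and their motifs, were looked at next. NFE2L1 is the transcription factor that raises proteasome genes when proteasomes are impaired. It reaches the nucleus after VCP extracts it from the endoplasmic reticulum and DDI2 cuts it. NFE2L1 was at 2.92, 2.80 and 2.53 in shCtrl and at 2.83, 2.96 and 3.06 in shXBP-1s, overlapping groups with a difference of 0.20 ± 0.10 (limma adjusted p = 0.154), 0.29 without shCtrl replicate 1 (limma adjusted p = 0.0443) and 0.03 within the slide. With normexp alone the NFE2L1 difference was 0.41 and passed (limma adjusted p = 1.74e-04), again by the pooled spread of that setting. With normexp then quantile normalization it was 0.32 and passed (limma adjusted p = 0.0391). DDI2, with signals between 13.5 and 23.9, had a difference of -0.01, and of -0.80 with normexp, neither past the threshold. Of the 10 genes of this list 3 were higher and 1 lower, or 30% and 10%, beside 18.9% and 27.5% of all tested genes. VCP rose by 0.30 ± 0.05 (limma adjusted p = 0.00212) and MAFK, a small partner protein of NFE2L1, by 0.35 ± 0.04 (limma adjusted p = 4.07e-04). SEL1L, a cofactor of the endoplasmic reticulum ubiquitin ligase SYVN1, fell by 0.73 ± 0.07 on its brightest probe (limma adjusted p = 1.25e-04) and was lower by 0.91 on a dim probe and higher by 0.46 on the remaining one.

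NFE2L1 binds antioxidant response elements, searched as TGACNNNGC. They were in 16 of the 47 member windows, or 34%, and in 13.3% of all windows. Of the 15 genes concerned, 8 had a difference above 0 and 7 below, with 3 and 5 past the threshold. Of 2422 other tested genes with the element 20.1% were higher and 28.2% lower, beside 18.9% and 27.8% of 10691 genes without it. The window of PSMD12 is shown because that gene had the largest rise, with its element in capitals.
PSMD12, chr17:67366528-67366827, minus strand: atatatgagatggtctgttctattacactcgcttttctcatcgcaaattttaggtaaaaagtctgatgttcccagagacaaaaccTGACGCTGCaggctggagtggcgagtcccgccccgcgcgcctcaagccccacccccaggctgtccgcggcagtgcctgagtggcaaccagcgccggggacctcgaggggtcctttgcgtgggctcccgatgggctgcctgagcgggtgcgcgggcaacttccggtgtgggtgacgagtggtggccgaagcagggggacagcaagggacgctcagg
The element lies at positions -165 to -157 from the start. XBP-1s binds the unfolded protein response element, searched as TGACGTGG, and its core ACGTG, which is contained in it. No member window held TGACGTGG, which was in 0.729% of all windows, nor an endoplasmic reticulum stress response element, in 0.0769% of all. ACGTG was in 9 member windows, or 19.1%, beside 21.4% of all. Of the 8 genes concerned 7 had a difference below 0, and PSMA6, PSMB9 and PSMB10 were past the threshold, while PSMB3 was above 0 and none was higher past it. Among other tested genes 29.6% of 3948 with ACGTG were lower and 18.4% higher, beside 27.1% and 19.4% of 9165 without it. CCAAT was in 42.6% of member windows and 34.6% of all, the ETS motif GGAAGT in 48.9% and 22.8%, and the interferon-gamma activated site TTCNNNGAA in 14.9% and 7.66%. These are matches of letters in short windows and say nothing of binding.

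The interferon arm was read through 12 regulators and partners of the immunoproteasome, of which 2 were higher and 4 lower. Among all tested genes 18.9% were higher and 27.5% lower. The median difference of this list was -0.05, beside -0.04 for all tested genes, so the list as a whole was close to the background. IRF1, the factor that drives immunoproteasome genes after interferon-gamma, was at -0.36, -0.55 and -0.75 in shCtrl and at -1.23, -1.28 and -1.29 in shXBP-1s, and fell by 0.71 ± 0.09 (limma adjusted p = 5.46e-04). TAP2, whose gene lies beside PSMB8, was at 2.80, 2.91 and 2.92 in shCtrl and at 2.11, 2.19 and 2.29 in shXBP-1s, and fell by 0.68 ± 0.06 (limma adjusted p = 7.20e-05), or by the mean of its probes a difference of -0.33. TAP1, which shares its divergent promoter region with PSMB9, was at 3.50, 3.62 and 3.51 in shCtrl and at 3.46, 3.52 and 3.54 in shXBP-1s. Its groups overlapped, and its difference of -0.04 ± 0.05 changed sign with the scaling (limma adjusted p = 0.612). The 2 higher genes were PDIA3 (0.26, limma adjusted p = 0.011) and IRF2 (0.40, limma adjusted p = 0.044). IRF2 was dim, with signals from 26.0 to 52.0, and was at -0.59 with normexp. TAPBP, B2M, NLRC5, IRF9 and CALR did not pass by their brightest probes. IRF1 and TAP2 fell on the same arrays as PSMB8, PSMB9, PSMB10, PSME1 and PSME2, and the TAP1 difference did not pass. The list as a whole did not move in one direction. A link between these changes was not tested.

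Other genes around the particle moved in both directions. Of 13 tested further proteasome genes 4 were higher (30.8%) and 5 lower (38.5%), beside 18.9% and 27.5% of all tested genes. PSMA8 and ECPAS had no tested probe. PSMF1, the inhibitor PI31, fell by 0.52 ± 0.05 on its brightest probe (limma adjusted p = 6.00e-05), while its other 3 probes did not pass. USP14, the ubiquitin protease of the cap, fell by 0.39 ± 0.05 (limma adjusted p = 7.26e-04). AKIRIN2, which carries proteasomes into the nucleus, rose by 0.58 ± 0.05 (limma adjusted p = 8.07e-05). Of 13 ubiquitin genes and shuttle receptors 4 were higher (30.8%) and 3 lower (23.1%). The shuttle RAD23B fell by 0.77 ± 0.04 (limma adjusted p = 6.26e-06), with a second probe at -0.05. The shuttles UBQLN1 and UBQLN4 rose by 0.41 and 0.42. UBQLN1 by the mean of its probes was at 0.05, and UBQLN4 was at -0.14 with normexp alone.

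Peptides that leave the proteasome are trimmed by cytosolic and endoplasmic reticulum peptidases, and 3 of the 10 genes on that list were higher and 5 lower. As shares these were 30% and 50%, beside 18.9% and 27.5% of all tested genes, and the median difference was -0.20. LAP3 (-0.65), BLMH (-0.63), THOP1 (-0.44), ERAP1 (-0.35) and NPEPPS (-0.30) were lower by their brightest probes. A second probe was at -1.20 for ERAP1 and at 0.20 for NPEPPS. NLN, the oligopeptidase neurolysin, rose by 1.40 ± 0.09 (limma adjusted p = 1.76e-05) and LNPEP, an aminopeptidase of endosomes, by 1.19 ± 0.05 (limma adjusted p = 2.84e-06). TPP2, tripeptidyl peptidase 2, which trims long proteasome products, was at -0.64, -0.61 and -0.65 in shCtrl and at 0.03, 0.07 and 0.18 in shXBP-1s. It rose by 0.73 ± 0.05 (limma adjusted p = 2.48e-05), without overlap and by the same size within the slide. As scaled here all 3 rises were larger than any among the 44 proteasome genes. With normexp LNPEP was at 0.59 and TPP2 at 0.62, both below PSMD12 at 0.64. The paper reports the opposite direction for TPP2, lower after XBP-1s knockdown on its microarray, by qRT-PCR and by immunoblotting. The rise here rests on a single probe, and the cause of the disagreement was not tested.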

How the data were processed

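Total RNA of CAL-27 cells was labelled with Cy3 and read on 6 Agilent whole human genome arrays of 44495 spots. The label text describes a NimbleGen labelling protocol, whereas the scanner output and the methods name Agilent. The authors deposited, per the file headers, the scanner output of Agilent Feature Extraction 11.0.1.1. Its intensity column is the signal after background subtraction, and other columns flag spot quality. A second deposited table holds log2 values, whose centring is not given in the sources used here (RMA is named in the submitters' processing notes) and which correlated with the log2 scanner signals at 0.9997 or more on each array. That table served as an alternative only.

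Control spots (1377) and spots flagged as outliers, 230 to 377 an array, were left out. The log2 of the intensity minus the 75th percentile of the array was averaged over the spots of a probe and fitted with limma 3.58.1 (eBayes with trend) in R 4.3.3. A probe was tested if over 50% of its spots were well above background on all 3 arrays of a group. Accessions were named through the RefSeq table of GRCh38.p14. Such array ratios compress large changes and can read other transcripts of a gene.

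The genes named were XBP1, the exchange pairs, POMP, the activators, in each subcomplex the 2 largest rises and 2 largest falls past the threshold, members with opposed probes, and in each other list the 3 smallest p-values with NFE2L1, DDI2, TAP1 and TPP2; PSMA1, PSMD1, PSMD2 and others named beside them were added after their values were seen. A gene that the rule names is not reported here. Members and lists were chosen with earlier results of these data known. The fit was tested on simulated data. The number of arrays limits the precision. Same-numbered samples did not deviate together (correlations -0.02, 0.12 and -0.12), so the numbers were not taken as pairs.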

Additional observations from a re-analysis of the deposited data

How the results depend on the processing

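The 10 higher and 12 lower members, the subcomplex medians and the named genes were recomputed under other scalings, filters, probe choices, blocks and left-out arrays. The count of lower members was 4 with normexp and 6 with the slide as a block, and that of higher members was 18 with cyclic loess and 17 on the deposited log2 values. Other settings kept both within a factor of 1.5 of the reported counts. The methods' t-test put 12 members higher and 12 lower at its unadjusted threshold, and 7 and 11 after Benjamini-Hochberg adjustment. No setting called a member at 2-fold. The median of all members, close to 0 at -0.0071, turned positive with normexp (0.118), quantile normalization (0.077), both (0.05), cyclic loess (0.055), the deposited values (0.051), averaged probes (0.013) and the probe of largest change (0.027). With one array left out at a time it ran from -0.015 to 0.021, and the counts ran from 8 to 12 higher and from 9 to 11 lower. Normexp alone moved the median of all tested genes from -0.04 to -0.29, and relative to it the members stood 0.41 higher. The cause of these shifts was not tested. The median of the assembly factors turned positive with normexp (0.042), normexp and quantile (0.0105), quantile normalization (0.060), cyclic loess (0.029) and the deposited values (0.031). PSME3 turned positive with normexp (0.058), normexp and quantile (0.057), quantile (0.0044), cyclic loess (0.038) and the deposited values (0.037), and ran from -0.034 to 0.050 with arrays left out. TAP1 turned positive with normexp (0.106), normexp and quantile (0.024), cyclic loess (0.039), the deposited values (0.022) and within the slide (0.0057), and ran from -0.056 to 8e-04 with arrays left out. DDI2 turned positive with normexp and quantile (0.0051), cyclic loess (0.0087) and within the slide (0.079), and ran from -0.122 to 0.096 with arrays left out. UBQLN4 turned negative with normexp (-0.14). PSMA2, PSMA6, PSMB7, PSMD6, PSMD7, PSME1, PSME2 and VCP lost their call with normexp alone, and PSMA7, PSMC3, PSMD6 and PSME1 when limma was run without the trend. With the replicate number as a block 10 members were higher and 9 lower. Among the named members PSME1 (adjusted p = 0.0507) and PSMD6 (adjusted p = 0.0805) lost their limma call under that block, and the samples share only a number, since not every sample correlated best with its own. Counting only the 250 bases before a start, GAAANNGAA was in 5 member windows, or 10.6%, beside 6.88% of all windows. Dim probes such as that of DDI2 limit what can be read at low signal.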
